A study of Homo sapiens with 9 samples.

Results

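The ADAM, ADAMTS and ADAMTS-like genes encode the adamalysin branch of the metalloproteinases and its enzyme-free relatives. Their RNA was followed before and after sodium formate in the human glioblastoma line LN229, an established line. The list held 36 gene symbols, chosen by family name with earlier results of these data known. The deposited table, with 23727 genes in all, held 32 of them, and 25 passed the filter on low counts, among 15273 tested genes. The RNA of ADAMTS2, ADAMTS8, ADAMTS18 and ADAMTS19 is not analysed here.

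All 9 libraries came from LN229 cells grown in DMEM that held glucose at 17 mM, glutamine at 2 mM and 10% bovine serum from fetal calves. A source label spells the line LN299; the name in the growth protocol is used. The untreated group was taken at 0 h, and the other 2 groups after 8 h and 24 h with 500 µM Na-formate, the salt of a 1-carbon acid that feeds folate metabolism; each group held 3 libraries, numbered 1 to 3. The untreated libraries analysed here were all taken at 0 h, so formate and time in culture cannot be told apart. Nothing in the labels says that the libraries of a group came from separate cultures, and p-values then measure only the spread between these samples. LN229 is a single line grown without other cell types or brain matrix, and in bulk RNA fewer cells of a kind and less RNA per cell cannot be told apart.

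ADAM proteins are membrane proteins with a metalloproteinase and a disintegrin domain. The catalytic members cut other membrane proteins close to the cell surface and so release growth factors, cytokines and receptor ectodomains, while ADAM11, ADAM22 and ADAM23 lack the zinc-binding residues of the active site and act as receptors and adhesion proteins, mainly in neural tissue. ADAMTS proteins are secreted, carry thrombospondin repeats, and cut matrix proteins such as the proteoglycans aggrecan and versican, procollagens and von Willebrand factor. ADAMTS-like proteins keep the thrombospondin repeats but have no protease domain, and several bind fibrillin microfibrils.

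The libraries held 22222298 to 25848242 counts, and 3 counts correspond to 0.115 to 0.141 CPM, counts relative to the library size after TMM scaling. On the first principal component, which held 70.7% of the variance, untreated library 1 scored -23.5 and 8 h library 1 scored -21.6, apart from the other untreated and 8 h libraries at -3.41 to -0.798. Untreated library 1 was the lowest of the untreated libraries for 18 of the 25 tested members (72.0%), against 41.9% of all tested genes. Of 7 glioma markers, 6 were tested; NES, VIM, SOX2 and CD44 averaged 69.4 to 4899 CPM in each group, OLIG2 8.28 to 11.9 CPM, and GFAP had 3 to 10 counts a library. S100B was the glioma marker called at 24 h against 0 h, at 130.1 ± 46.2 CPM untreated and 339 ± 53.5 CPM at 24 h (SD, n = 3), with a log2 fold change of 1.38 (adjusted p = 0.0460). The log2 differences of VIM, CD44 and OLIG2 were -0.46, -0.38 and 0.52 and did not pass, but did with the replicate number as a block (adjusted p = 0.00858, 0.00690 and 0.0303), and the part of the markers in the members' changes was not tested. The leukocyte and epithelial markers in the table summed to at most 0.265 CPM in any library.

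The 250 bases before the start site are given from the RefSeq promoter table on GRCh38.p14 for ADAM23, which was higher at 24 h, and ADAM19, which was lower, so that the upstream sequence of members moving in opposite directions can be read side by side. Both strands were searched for the letters of 5 motifs. They were TGANTCA for the AP-1 factors, GGAATG for the TEAD factors, GGGCGG for SP1, TATAAA for the TATA box and TGACGTCA for the cyclic AMP response element (CRE). Capitals mark a match to the SP1 letters, which read CCGCCC where the match is on the other strand. The windows are 73.6% G and C for ADAM23, on the plus strand at chr2:206443282-206443531, and 76.4% for ADAM19, on the minus strand at chr5:157575776-157576025.
ADAM23: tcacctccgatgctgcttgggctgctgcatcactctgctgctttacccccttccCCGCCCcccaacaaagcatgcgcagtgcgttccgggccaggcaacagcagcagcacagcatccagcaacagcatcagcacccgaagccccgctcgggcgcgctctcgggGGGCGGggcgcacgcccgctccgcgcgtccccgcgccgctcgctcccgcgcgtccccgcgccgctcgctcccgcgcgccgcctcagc
ADAM19: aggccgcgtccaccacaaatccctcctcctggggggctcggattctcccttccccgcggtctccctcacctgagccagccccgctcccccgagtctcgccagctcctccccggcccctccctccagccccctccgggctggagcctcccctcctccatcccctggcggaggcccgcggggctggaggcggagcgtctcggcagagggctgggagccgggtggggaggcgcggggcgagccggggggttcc
ADAM23 held 2 SP1 matches and ADAM19 none of the 5 motifs. Windows were found for 25 of the 36 listed genes, and these are not the 25 tested members. They include ADAMTS2, ADAMTS18, ADAMTS19 and members too low to test, and lack ADAMTS4 and ADAMTS15 among others. The SP1 letters were in 22 of these 25 genes' windows, all but ADAM19, ADAMTS6 and ADAMTSL1. ADAM15, which was not called, held 6 matches. Of 34943 RefSeq promoters of this length, 42.5% held SP1, 6.59% AP-1, 11.9% TEAD, 10.8% TATA and 1.63% CRE. The windows found for listed genes had a median G and C content of 73.6% against 58.0% over all promoters. A match to these letters is a description of the window and not a site.

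Levels between genes were compared as CPM per kilobase of exon. ADAM9 and ADAM15 led, with means over the 9 libraries of 39.1 and 32.8, followed by ADAM10 at 12.2, ADAM12 at 11.2, ADAM19 at 10.8, ADAMTS1 at 10.4, ADAM17 at 6.63 and ADAMTS15 at 4.64. ADAM9 was above ADAM15 in 7 of 9 libraries, ADAM15 above ADAM10 in all 9, and ADAM10 above ADAM12 in 8. ADAM12 was above ADAM19 in 3 libraries, the 3 of 24 h. ADAM19 was above ADAMTS1 in 6 of 9, the 6 of 0 h and 8 h, so ADAM19 stood above both genes before 24 h and below both at 24 h. The summed level of the 32 members in the table was 146.8 ± 9.41 CPM per kilobase untreated, 154.3 ± 4.31 at 8 h and 150.8 ± 6.32 at 24 h (mean ± SD, n = 3).

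**Figure D1:**
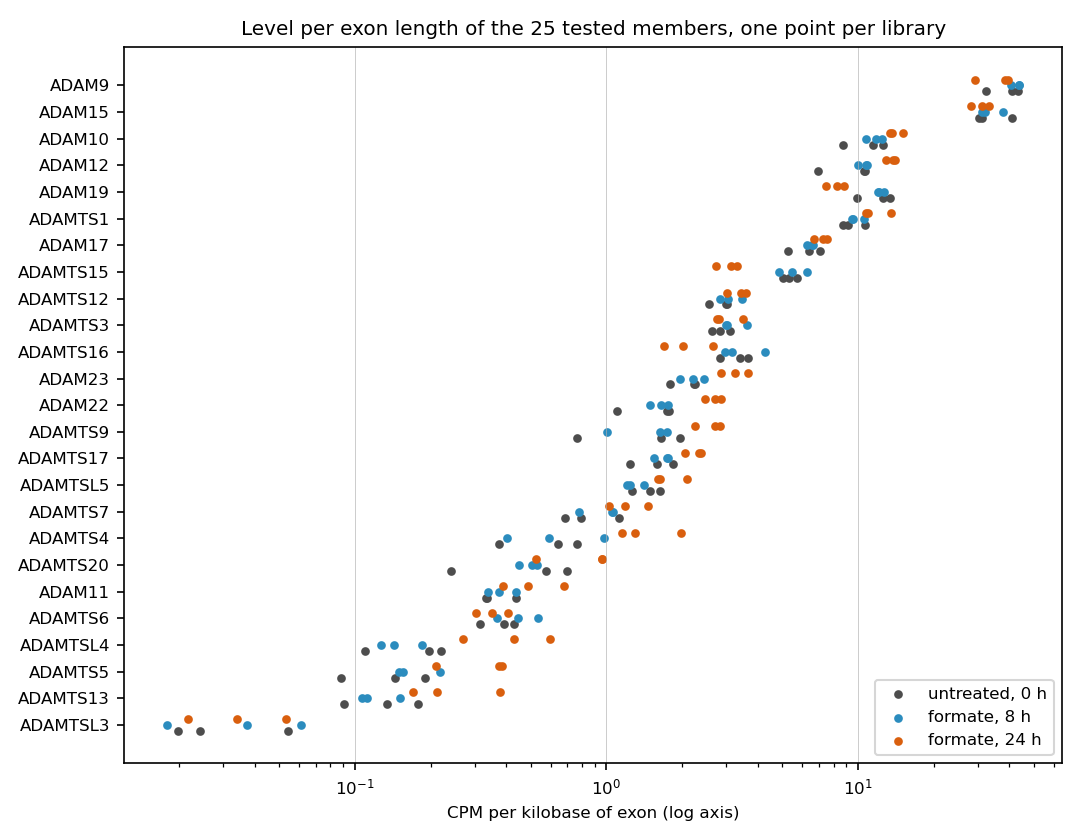
Level of each tested member as CPM per kilobase of exon on a log axis, 1 point per library, coloured by group. ADAM9 and ADAM15 stand above the rest. The 24 h points lie apart from the untreated points in 14 of 25 members, against 30.2% of all tested genes.

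The other 7 genes in the table were too low to test. ADAM8, a sheddase of leukocytes and tumour cells, had 2 to 11 counts a library. ADAM33 had 0 to 12, ADAMTSL1 0 to 6, ADAMTS14, a procollagen N-proteinase, 0 to 5, ADAMTS10 0 to 4, and ADAM28 and ADAMTSL2 0 to 2.

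At 24 h against untreated cells, 3 of the 25 tested members rose and 2 fell. The members that rose were ADAM22, ADAM23 and ADAMTS4, and those that fell were ADAM19 and ADAMTS15. Over all tested genes 4.25% were called, 2.47% higher and 1.77% lower (edgeR's quasi-likelihood test, Benjamini-Hochberg adjusted p under 0.05 over all tested genes). The median log2 fold change was 0.36 over the members and 0.01 over all tested genes, and 19 of 25 members were above 0. The groups' libraries did not overlap for 14 members, 11 of them higher and 3 lower at 24 h, where 30.2% of all tested genes had no overlap. With the replicate number as a further term of the fit (a block), 15 members were called, 12 higher and 3 lower, where 24.1% of all genes were. The count without the block depended on single libraries. It was 0 without 24 h library 2 or 3, where 0% of all tested genes were called, so every gene lost its call there. It was 2 without 8 h library 3 (1.82% of all genes) and 3 without any 1 untreated library (2.28% to 3.68%). With the block the count was 12 to 15 whichever library was left out, where 14.2% to 24.5% of all genes were called.

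**Figure D2:**
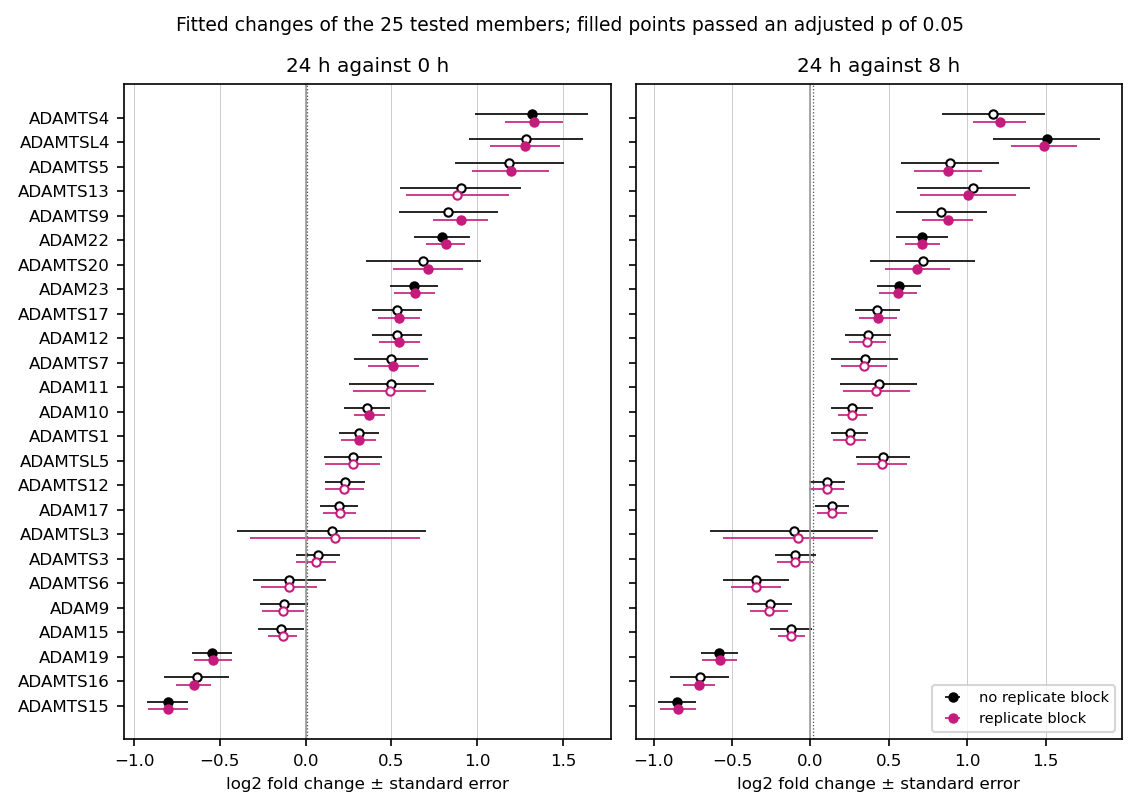
Fitted log2 fold change of each tested member at 24 h against 0 h (left) and against 8 h (right) with its standard error, without (black) and with (pink) the replicate block; filled points have an adjusted p under 0.05 and the dotted line is the median of all tested genes. In both panels ADAM19, ADAMTS15 and ADAMTS16 lie lowest, and ADAMTS4 and ADAMTSL4 highest.

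The 3 ADAMs without a catalytic site were all above 0 at 24 h, with a median log2 fold change of 0.63, and 2 rose. Among all 15273 tested genes, 7781 were above 0 against 0 h and 2.47% rose. Gene positions are those of GENCODE 29 on GRCh38. ADAM22 (chr7:87934143-88202889, plus strand), the neuronal receptor of LGI proteins that anchors them at synapses, was at 13.4, 21.6 and 21.3 CPM in untreated libraries 1, 2 and 3, 18.2, 21.5 and 20.1 CPM at 8 h and 30.1, 34.7 and 33.1 CPM at 24 h. All 24 h libraries were above all untreated and 8 h libraries. The log2 fold change of ADAM22 at 24 h against 0 h was 0.80 (standard error 0.16, adjusted p = 0.0293), and against 8 h 0.71 (standard error 0.16, adjusted p = 0.0366). Without 24 h library 2, 24 h library 3 or 8 h library 3 the call against 0 h was lost, and the adjusted p over the 9 fits that each left out 1 library ran from 0.0251 to 0.143.

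ADAM23 (chr2:206443539-206621130, plus strand), which also binds LGI proteins and, through its disintegrin domain, integrins, was at 11.4, 14.5 and 14.3 CPM in untreated libraries 1, 2 and 3, 14.2, 15.7 and 12.5 CPM at 8 h and 18.4, 20.8 and 23.4 CPM at 24 h. The 24 h libraries again lay above all 6 others. ADAM23 had a log2 fold change of 0.63 (standard error 0.14, adjusted p = 0.0345) at 24 h against 0 h and of 0.56 (standard error 0.14, adjusted p = 0.0468) against 8 h. The call against 0 h was lost without untreated library 1 or 3, 8 h library 3, or 24 h library 2 or 3, with adjusted p values from 0.0292 to 0.175 when 1 library was left out.

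ADAM11, the third of these receptors, was at 1.60, 1.58 and 2.08 CPM in untreated libraries 1, 2 and 3, 2.09, 1.62 and 1.79 CPM at 8 h and 1.86, 2.33 and 3.23 CPM at 24 h. The groups overlapped, and ADAM11 was higher by 0.50 on the log2 scale at 24 h than at 0 h, which did not pass (adjusted p = 0.221). Together the 3 genes made up 2.71% ± 0.30 of the members' summed level per kilobase in untreated cells. At 24 h they made up 4.29% ± 0.62 (SD, n = 3), with no overlap between the libraries. Taken singly, 30.2% of all tested genes had no overlap in this comparison.

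Of the 9 catalytic ADAMs, 6 were tested, 1 fell and none rose, with a median log2 fold change of 0.03. Of all tested genes, 1.77% fell and 2.47% rose. ADAM19 (chr5:157395534-157575775, minus strand), a sheddase of neuregulins, was at 76.7, 97.3 and 103 CPM in untreated libraries 1, 2 and 3, 93.2, 92.7 and 97.7 CPM at 8 h and 68.1, 63.8 and 57.7 CPM at 24 h. Every 24 h library was below every untreated and 8 h library. ADAM19 fell by 0.55 on the log2 scale from 0 h (standard error 0.12, adjusted p = 0.0314) and by 0.58 from 8 h (standard error 0.12, adjusted p = 0.0251). Without untreated library 2 or 3, 8 h library 3, or 24 h library 2 or 3, the difference of ADAM19 from 0 h did not pass, and over the 9 fits its adjusted p lay between 0.0122 and 0.164.

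ADAM10, the protease that cuts Notch receptors and the amyloid precursor protein, was at 142, 203 and 186 CPM in untreated libraries 1, 2 and 3, 174, 201 and 191 CPM at 8 h and 216, 244 and 221 CPM at 24 h. Its 24 h libraries were above all others, and its log2 fold change at 24 h against 0 h was 0.36 (standard error 0.13, adjusted p = 0.126), or adjusted p = 0.0129 with the block. ADAM12, a sheddase of EGF receptor ligands that is abundant in fusing muscle and placenta, was at 68.5, 104 and 106 CPM in untreated libraries 1, 2 and 3, 106, 107 and 98.7 CPM at 8 h and 127, 139 and 136 CPM at 24 h. The 24 h libraries were highest for ADAM12 too, and the difference from 0 h was 0.53 (standard error 0.14, adjusted p = 0.0600), or adjusted p = 0.00841 with the block. Untreated library 1 was the lowest library for both genes.

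The other 3 catalytic members did not pass with or without the block. ADAM9, a widely expressed sheddase, was at 224, 299.6 and 283 CPM in untreated libraries 1, 2 and 3, 302, 303 and 280.3 CPM at 8 h and 272, 266 and 201 CPM at 24 h. At 24 h the libraries of ADAM9 overlapped the untreated ones and lay below those of 8 h, and the log2 difference at 24 h against 0 h was -0.13 (adjusted p = 0.586). ADAM15, which carries an RGD integrin-binding motif in its disintegrin domain, was at 269, 204 and 199 CPM in untreated libraries 1, 2 and 3, 248, 211 and 205 CPM at 8 h and 218, 185 and 205 CPM at 24 h, with a log2 difference of -0.15 (adjusted p = 0.501) and overlapping groups. ADAM17, the protease that releases TNF and many EGF receptor ligands, was at 56.9, 75.9 and 68.6 CPM in untreated libraries 1, 2 and 3, 70.9, 71.3 and 67.5 CPM at 8 h and 77.9, 80.6 and 72.1 CPM at 24 h. Those of 24 h overlapped the untreated ones and lay above those of 8 h, and the difference for ADAM17 was 0.19 (adjusted p = 0.274). Genes on the opposite strand overlap 13.6% of its exon bases, and the strand setting of the counting is not given in the sources used here.

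**Figure D3:**
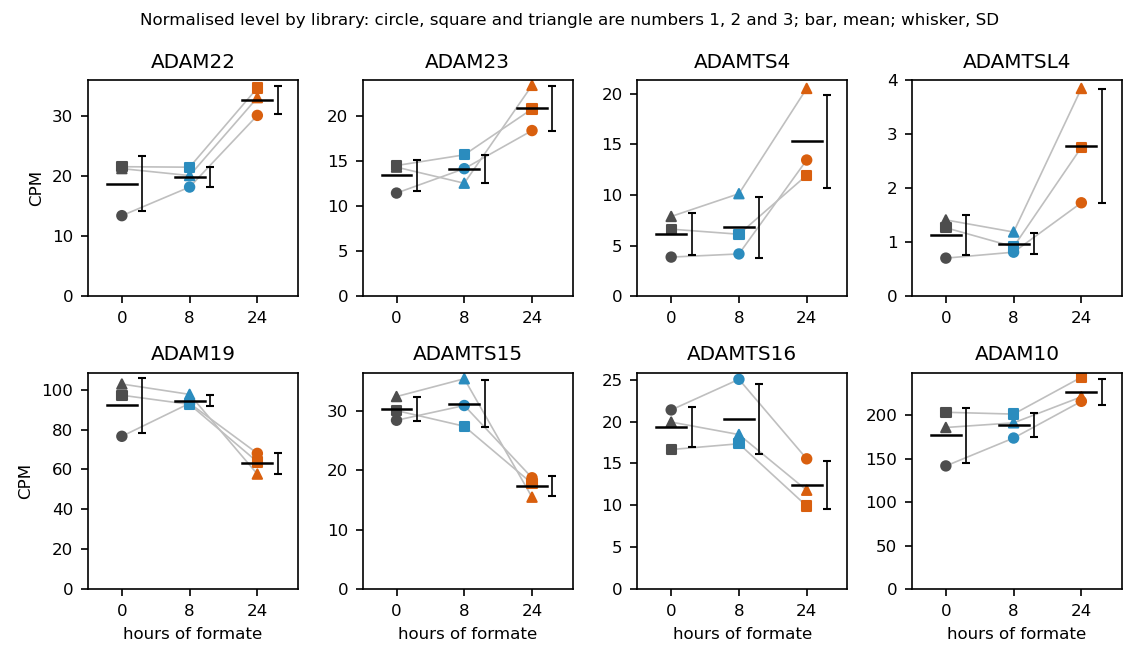
CPM of single members in each of the 9 libraries by hours of formate, a panel per gene, with circle, square and triangle for numbers 1, 2 and 3, lines joining libraries of the same number, a bar at the mean of 3 libraries and a whisker of 1 SD to each side. The 24 h points of ADAM22 and ADAM23 lie above, and those of ADAM19 and ADAMTS15 below, all points of 0 h and 8 h.

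Of the 7 ADAMTS proteases listed as proteoglycanases, 6 were tested; ADAMTS4 rose, ADAMTS15 fell, and the median log2 fold change was 0.76. With the block, 5 of them rose and ADAMTS15 fell, where 24.1% of all tested genes were called with the block and 4.25% without. ADAMTS4 (chr1:161184308-161199056, minus strand), aggrecanase-1, was at 3.86, 6.62 and 7.87 CPM in untreated libraries 1, 2 and 3, 4.17, 6.12 and 10.1 CPM at 8 h and 13.4, 11.9 and 20.5 CPM at 24 h. All 24 h libraries were above all others, and library 3 was the highest in each group. The log2 fold change of ADAMTS4 was 1.32 (standard error 0.33, adjusted p = 0.0490) against 0 h, and 1.17 (standard error 0.33, adjusted p = 0.0662) against 8 h, short of the threshold. Against 0 h the call held in 2 of the 9 fits without 1 library, those without 8 h library 1 or 3, and the adjusted p ranged from 0.0382 to 0.222; with the block it held in all 9.

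ADAMTS15 (chr11:130448974-130476641, plus strand), an aggrecan- and versican-cutting protease, moved the other way, at 28.5, 30.1 and 32.4 CPM in untreated libraries 1, 2 and 3, 30.9, 27.4 and 35.5 CPM at 8 h and 18.8, 17.8 and 15.5 CPM at 24 h. The 24 h libraries lay below all 6 others. ADAMTS15 fell by 0.81 on the log2 scale from 0 h (standard error 0.12, adjusted p = 0.0168) and by 0.85 from 8 h (standard error 0.12, adjusted p = 0.0171). The fall from 0 h was not called without 24 h library 2 or 3, and over the 9 fits without 1 library the adjusted p ran from 0.0144 to 0.102.

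ADAMTS5, aggrecanase-2, was at 0.801, 1.31 and 1.72 CPM in untreated libraries 1, 2 and 3, 1.36, 1.97 and 1.40 CPM at 8 h and 1.90, 3.49 and 3.40 CPM at 24 h. ADAMTS1, its neighbour 72.5 kb away on chromosome 21 and on the same strand, was at 64.4, 61.8 and 75.1 CPM in untreated libraries 1, 2 and 3, 67.4, 67.1 and 75.0 CPM at 8 h and 95.9, 76.0 and 77.3 CPM at 24 h. The 24 h libraries of both genes lay above the untreated ones, and those of ADAMTS1 also above all of 8 h. ADAMTS5 had a log2 fold change of 1.19 (standard error 0.32, adjusted p = 0.0575) and ADAMTS1 of 0.31 (standard error 0.12, adjusted p = 0.135) at 24 h against 0 h. With the block the values were adjusted p = 0.00363 for ADAMTS5 and adjusted p = 0.0491 for ADAMTS1. Per kilobase ADAMTS1 was the more abundant of the pair in every library.

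ADAMTS9, a versicanase, was at 8.15, 17.5 and 21.0 CPM in untreated libraries 1, 2 and 3, 10.7, 18.6 and 17.4 CPM at 8 h and 24.0, 30.3 and 28.99 CPM at 24 h. The 24 h libraries were above all others, and untreated library 1 was the lowest of all. Its log2 fold change was 0.83 (standard error 0.29, adjusted p = 0.112), or adjusted p = 0.00272 with the block. ADAMTS20, the closest relative of ADAMTS9, was at 1.74, 4.16 and 5.04 CPM in untreated libraries 1, 2 and 3, 3.27, 3.67 and 3.83 CPM at 8 h and 3.80, 6.94 and 6.96 CPM at 24 h, with overlap between the groups. The difference of 0.69 (standard error 0.33, adjusted p = 0.210) for ADAMTS20 had adjusted p = 0.0276 with the block. The blocked calls of ADAM10, ADAMTS1, ADAMTS7 and ADAMTS20 depended on the libraries used: over the 9 blocked fits that each left out 1 library, ADAMTS1 was called in 2, ADAMTS20 in 4, ADAMTS7 in 6 and ADAM10 in 8, and the other 11 members called with the block in all 9.

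Among the remaining secreted proteases none passed without the block. ADAMTS16 was at 21.4, 16.7 and 19.9 CPM in untreated libraries 1, 2 and 3, 25.04, 17.4 and 18.4 CPM at 8 h and 15.6, 9.91 and 11.8 CPM at 24 h. Its 24 h libraries were below all untreated and 8 h libraries, with a log2 difference of -0.64 (standard error 0.19, adjusted p = 0.0738) from 0 h and adjusted p = 0.00142 with the block. ADAMTS17, a relative of the microfibril-associated ADAMTS10, was at 10.2, 13.1 and 15.2 CPM in untreated libraries 1, 2 and 3, 12.8, 14.4 and 14.3 CPM at 8 h and 19.3, 16.9 and 19.6 CPM at 24 h. All 24 h libraries were above all others. The log2 difference of ADAMTS17 was 0.54 (standard error 0.15, adjusted p = 0.0600), or adjusted p = 0.00924 with the block, and 5.23% of its exon bases are overlapped from the opposite strand. ADAMTS6 stayed between 2.59 and 4.58 CPM in all libraries, with a log2 difference of -0.09 (adjusted p = 0.797).

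ADAMTS7 and ADAMTS12 share a mucin-like domain and cut cartilage oligomeric matrix protein. ADAMTS7 was at 6.12, 5.27 and 8.71 CPM in untreated libraries 1, 2 and 3, 8.12, 5.99 and 8.25 CPM at 8 h and 7.90, 9.14 and 11.3 CPM at 24 h. The groups overlapped. Its log2 difference of 0.50 (standard error 0.22, adjusted p = 0.170) had adjusted p = 0.0283 with the block, and it is uncertain because reads may be shared with ADAMTS7 pseudogenes on chromosome 15. ADAMTS12 was at 24.97, 29.2 and 29.4 CPM in untreated libraries 1, 2 and 3, 33.8, 29.9 and 27.6 CPM at 8 h and 34.99, 29.5 and 33.5 CPM at 24 h, with the 24 h libraries above the untreated ones and among those of 8 h. The difference of 0.23 for ADAMTS12 did not pass (adjusted p = 0.225).

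ADAMTS13, the protease that cuts von Willebrand factor in plasma, was low, at 0.518, 0.769 and 1.02 CPM in untreated libraries 1, 2 and 3, 0.862, 0.612 and 0.638 CPM at 8 h and 0.972, 1.21 and 2.15 CPM at 24 h. Its libraries of 24 h overlapped the untreated ones and lay above those of 8 h, with 24 h library 3 the highest of all. The difference from 0 h was 0.90 (standard error 0.35, adjusted p = 0.143), or adjusted p = 0.0515 with the block, for ADAMTS13. ADAMTS3, the only procollagen N-proteinase tested, was at 20.5 CPM untreated and 21.6 CPM at 24 h (adjusted p = 0.751).

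Of the 5 ADAMTS-like genes, 3 were tested, and none passed against 0 h without the block. ADAMTSL4 (chr1:150549369-150560937, plus strand), a fibrillin-binding protein, was at 0.707, 1.27 and 1.41 CPM in untreated libraries 1, 2 and 3, 0.817, 0.918 and 1.19 CPM at 8 h and 1.73, 2.76 and 3.85 CPM at 24 h. Each 24 h library was above every other library. The log2 fold change of ADAMTSL4 was 1.29 (standard error 0.33, adjusted p = 0.0527) against 0 h, with adjusted p = 0.00153 under the block, and 1.51 (standard error 0.34, adjusted p = 0.0350) against 8 h. Genes on the opposite strand, ADAMTSL4-AS1 among them, overlap 14.4% of its exon bases. The call against 8 h was lost without any 1 of the 8 h libraries or without 24 h library 2 or 3, and the adjusted p over the 9 fits ran from 0.0110 to 0.190. ADAMTSL5 was at 4.57, 5.93 and 5.39 CPM untreated and 5.79, 5.90 and 7.58 CPM at 24 h, and ADAMTSL3 had 0.175 to 0.595 CPM, with overlap between the untreated and 24 h groups for both.

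At 24 h against 8 h, 5 members were called, ADAM22, ADAM23 and ADAMTSL4 higher and ADAM19 and ADAMTS15 lower, where 4.56% of all tested genes were called, 2.84% higher and 1.72% lower. These libraries did not overlap for 16 members, 12 higher and 4 lower, against 34.3% of all genes. The count was 0 without 8 h library 1, 24 h library 2 or 24 h library 3, where 0% of all tested genes were called. It was 1 without 8 h library 2 or 3 (2.38% and 0.34% of all genes), and 10 without untreated library 1 (16.3%). ADAM19, ADAM22, ADAM23 and ADAMTS15 were called against both earlier groups. Both comparisons use the same 24 h libraries, so the second call is not separate support for the first. The share of all tested genes called in both was not counted here.

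At 8 h against 0 h, no member and 0% of the tested genes were called by edgeR, and DESeq2 called none either. Below an unadjusted p of 0.05 lay 0 members and 79 genes (0.517% of those tested) by edgeR, and 0 members and 66 genes by DESeq2. These p-values come from fits without the replicate number, although the numbers were taken to pair 0 h with 8 h. With the block, edgeR again called 0% of the tested genes. No member's libraries were apart between 0 h and 8 h, against 3.31% of all genes. The members' log2 fold changes at 8 h ran from -0.22 to 0.30 with a median of 0.07, and the smallest adjusted p rounded to 1. ADAM22 averaged 18.8 ± 4.62 CPM untreated and 19.9 ± 1.66 CPM at 8 h, and ADAMTS15 30.3 ± 2.01 and 31.3 ± 4.01 CPM (SD, n = 3). The 8 h and 24 h comparisons share their untreated libraries.

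Genes that work with the family were taken from 6 lists of 69 symbols, of which 54 were tested; 3 rose and 1 fell at 24 h against 0 h, and 13 rose and 7 fell with the block, where 4.25% and 24.1% of all tested genes were called. The lists' median log2 fold change was 0.08. Of 14 tested activators, chaperones and glycosylation genes only TSPAN14 was called, and it rose. TSPAN14, a tetraspanin that escorts ADAM10 to the cell surface, was at 39.1, 54.3 and 48.5 CPM in untreated libraries 1, 2 and 3, 40.0, 52.2 and 46.4 CPM at 8 h and 86.3, 89.4 and 107 CPM at 24 h, with a log2 fold change of 0.99 (standard error 0.14, adjusted p = 0.0167) against 0 h. Its 24 h libraries were above all others, as were those of ADAM10, which was called only with the block. With the block 5 genes of this list rose and 3 fell. Other tetraspanins of the list went both ways at 24 h against 0 h. TSPAN15 differed by 0.67 (adjusted p = 0.0313 with the block), TSPAN5 by -0.42 (0.00790) and TSPAN17 by -0.35 (0.0200), and none of these passed without it.

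The inhibitors and clearance genes had 5 tested and none called. LRP1, an endocytic receptor that clears ADAMTS proteases, averaged 55.3 ± 14.0 CPM untreated and 84.5 ± 10.2 CPM at 24 h (SD, n = 3, adjusted p = 0.0632, with the block 0.0159). Of 20 tested shedding substrates, NRG1 fell and none rose, where 1.77% of all tested genes fell and 2.47% rose. NRG1, a neuregulin precursor cut by ADAM19, was at 47.5, 30.5 and 32.7 CPM in untreated libraries 1, 2 and 3, 62.0, 31.7 and 32.3 CPM at 8 h and 20.1, 12.2 and 7.54 CPM at 24 h. All 24 h libraries were below the others, and NRG1 fell by 1.47 on the log2 scale from 0 h (standard error 0.35, adjusted p = 0.0393).

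Among 7 tested ADAMTS substrates, ACAN and VWF rose and none fell, where 2.47% of all tested genes rose and 1.77% fell. ACAN, the aggrecan core protein cut by ADAMTS4 and ADAMTS5, was at 22.1, 19.6 and 15.8 CPM in untreated libraries 1, 2 and 3, 28.8, 23.0 and 16.6 CPM at 8 h and 33.0, 39.8 and 34.0 CPM at 24 h, with a log2 fold change of 0.89 (standard error 0.19, adjusted p = 0.0304). The 24 h libraries of ACAN and of VWF were above all others. VWF, the substrate of ADAMTS13, was at 0.565, 0.308 and 0.398 CPM in untreated libraries 1, 2 and 3, 0.318, 0.612 and 0.425 CPM at 8 h and 1.23, 1.03 and 1.57 CPM at 24 h, with a log2 fold change of 1.60 (standard error 0.33, adjusted p = 0.0304). VWF is also an endothelial marker; PECAM1, another one, had 0 to 3 counts a library, and the part of this in the result was not tested.

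No fibrillin microfibril gene of 7 tested was called, MFAP2 having the smallest p at a log2 difference of -0.84 (adjusted p = 0.166). LGI4, the only tested ligand of the ADAM22 and ADAM23 receptors, was at 1.22, 3.19 and 3.14 CPM in untreated libraries 1, 2 and 3, 0.454, 2.58 and 2.21 CPM at 8 h and 4.39, 9.48 and 14.3 CPM at 24 h. Its 24 h libraries were above all others, with a log2 fold change of 1.89 (standard error 0.52, adjusted p = 0.0625) against 0 h, adjusted p = 0.000203 with the block, and 2.42 (standard error 0.55, adjusted p = 0.0350) against 8 h. The summed level of the neuronal markers SYT1 and SNAP25 was 38.9 to 54.2 CPM untreated and 54.2 to 59.2 CPM at 24 h, SNAP25 being called higher and SYT1 not, and its part in the changes of ADAM22, ADAM23 and LGI4 was not tested.

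**Figure D4:**
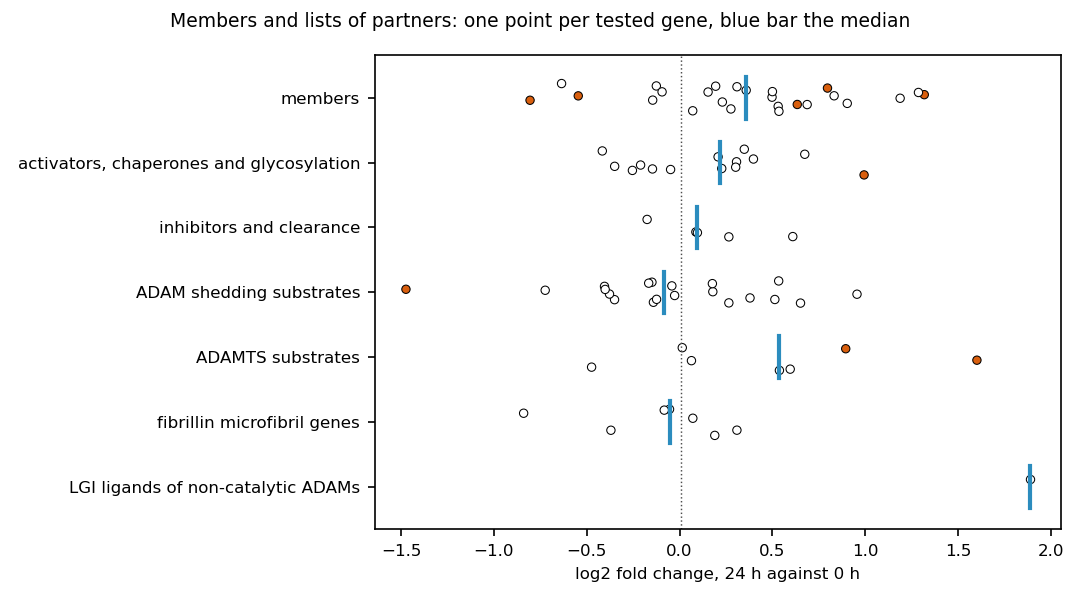
Fitted log2 fold changes at 24 h against 0 h of the tested members and of the partner lists, 1 point per gene, filled where the adjusted p is under 0.05, with a blue bar at the median of each list and a dotted line at the median of all tested genes. The medians run from -0.08 for the shedding substrates to 0.54 for the ADAMTS substrates, apart from the single LGI gene.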

How the data were processed

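RNA of 9 LN229 libraries was measured by sequencing of stranded mRNA libraries, per the labels' protocols. The authors deposited raw counts per Ensembl gene, with no further normalization. STAR 2.7.4a, bcl2fastq 2.20.0.422 and GRCh38 are named in the submitters' processing notes; the counting program, annotation release and strand setting are not given in the sources used here. Coordinates and exon lengths came from GENCODE 29 on GRCh38.

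Counts were filtered with filterByExpr, scaled with TMM and fitted in edgeR 4.0.16 (R 4.3.3), the 9 libraries together with 1 mean for each group. Differences were tested two-sided by edgeR's quasi-likelihood test, and p-values were adjusted by Benjamini-Hochberg over 15273 genes at a threshold of 0.05. The fit was tested on simulated data, in which libraries were drawn independently and the replicate number had no effect. That run cannot show how the fit handles same-numbered libraries that vary together or single libraries that stand apart. The members, partner lists, markers and naming rule were chosen with earlier results of these data known. Members were named when past the threshold in any comparison with or without the block, when among the 5 most abundant per kilobase, or when among the next 3 by p; list genes when past the threshold, or the 1 with the smallest p in a list. ADAMTS3, ADAMTS6, ADAMTSL3 and ADAMTSL5 complete the account. Classes of members follow textbook knowledge; a planned search for the zinc-binding motif was not run, since no protein sequences were used here.

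Deviations from the group means correlated across genes for same-numbered libraries at 0.476, 0.432 and 0.414 between 0 h and 8 h. Different numbers reached at most 0.0108 there, so the numbers in the titles were taken to pair these groups. Between 0 h and 24 h same numbers gave 0.367, 0.164 and 0.251. Untreated library 3 with 24 h library 2 gave 0.270, so pairing of 0 h with 24 h is uncertain. Between 8 h and 24 h same numbers gave 0.423, 0.0367 and 0.404, and the numbers were not taken to pair them. Values with the block at 24 h are therefore alternatives only. Alternatives were the replicate block, DESeq2 1.42.0, its size factors in edgeR, 2 other filters, only the groups compared, and leaving out libraries.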

Additional observations from a re-analysis of the deposited data

Results flagged for a closer look

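The changes of 5 members at 24 h and at 8 h, both against the same untreated libraries, differed from each other by the test of 24 h against 8 h (edgeR's quasi-likelihood test, n = 3 libraries a group). The difference on the log2 scale was -0.58 for ADAM19, 0.71 for ADAM22, 0.56 for ADAM23, -0.85 for ADAMTS15 and 1.51 for ADAMTSL4. All 3 libraries of 24 h lay beyond all 3 libraries of 8 h for each of these genes. The genes were picked by this same comparison, so the lack of overlap is not a separate test. Of all tested genes, 4.56% were called in it and 34.3% had no overlap. Without 8 h library 1, 24 h library 2 or 24 h library 3, 0% of all genes were called and these calls were lost. Other libraries mattered too. Over the 9 fits that each left out 1 library, ADAM23 was called in 2, ADAM19, ADAM22 and ADAMTSL4 in 4 each, and ADAMTS15 in 6.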

How the results depend on the processing

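Against 0 h, the 5 members called at 24 h became 15 with the replicate block, 11 with DESeq2's Wald test and 1 when only the 2 groups compared were fitted, where 24.1%, 10.9% and 0.825% of all genes with an adjusted p were called; leaving out 1 library gave 0 to 7, and with the block 12 to 15 (14 without untreated library 1, 8 h library 2 or 8 h library 3). Against 8 h, the 5 members became 12 with the block, 8 with DESeq2 and 10 with only the 2 groups, where 20.5%, 10.2% and 11.9% of all genes were called; leaving out 1 library gave 0 to 10, and with the block 7 to 17 (9 without 24 h library 2). Chosen after seeing the data, leaving out replicate 1 of every group gave 11 against 0 h and 13 against 8 h (16.9% and 19.9% of all genes), and leaving out number 1 of the untreated and 8 h groups gave 7 in both (5.77% and 6.83%). The cause was not tested. In the fits that each left out 1 library, 0% to 5.76% of all genes were called against 0 h and 0% to 16.3% against 8 h. With the block these shares were 14.2% to 24.5% and 7.57% to 34.8%. DESeq2's size factors in edgeR gave 5 and 4 members, no filter 7 and 7, and a mean of at least 1 CPM 4 and 5. At 8 h against 0 h the count was 0 in every alternative run, the block included. No named member changed the sign of a called value. For members under 1 CPM, such as ADAMTSL3 and ADAMTS13, low counts limit the precision.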
